A study of Mus musculus with 12 samples.

Results

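The contractile apparatus of vascular smooth muscle was followed through 7 genes, Acta2, Tpm2, Myh11, Myl9, Tagln, Cnn2 and Flna, in RNA from the hippocampus of wild-type mice and of mice with a deletion of presenilin genes. The genes were picked by name for their part in this apparatus, with earlier results of these data known, and all 7 were found among the 21878 genes of each deposited table. Values were available for 12 libraries in 4 groups of 3: wild-type mice (WT) and conditional double knockout mice of presenilin genes (DKO), each taken by day and at night. All mice received sodium pentobarbital at 30 mg/kg, and killing was at 9 in the morning or 9 in the evening. The age and sex of the mice, the promoter and the cell type that drive the deletion, and whether each library is 1 mouse are not stated by the labels. The p-values therefore measure the spread between these libraries, which may be partly technical.

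In a contracting smooth muscle cell, myosin heads pull on filaments of actin after the myosin regulatory light chain has been phosphorylated by a kinase that calcium and calmodulin switch on. Tropomyosin and calponins lie along the actin filament, transgelin binds and bundles it, and filamin links filaments to each other and to the membrane. In the brain, smooth muscle cells wrap arteries and arterioles and set their diameter, while pericytes cover capillaries. Acta2, Myh11 and Tagln mark smooth muscle, whereas Cnn2, Flna and Tpm2 are also used by endothelial, immune and connective tissue cells. Many smooth muscle genes are read by serum response factor, which binds a sequence called the CArG box.

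Promoter windows of the genes are shown first, because serum response factor is the textbook regulator of smooth muscle genes. RefSeq promoters of build GRCm38.p6 were matched for 5 of the 7 members, Acta2, Tpm2, Myl9, Cnn2 and Flna, while those of Tagln and Myh11 were not analysed here. Each window ran from 250 bases before a start listed for the gene to 50 bases after it. For Cnn2 this start is the first base of the gene's span, but for Acta2, Tpm2, Myl9 and Flna it lies inside the span. The Flna window, chrX:74246485-74246784, lies wholly within the gene, chrX:74223461-74249854. Distances are counted from the listed start, and other starts were not searched. The CArG box was searched as 6 bases of A or T between a pair of C and a pair of G. The box reads as a box on the other strand too. The 3 windows with a box, or with a box in which 1 of the 6 central bases is C or G, are printed up to the start in the direction of the gene, with these letters in capitals. They lie at chr19:34255374-34255623 (Acta2, minus strand), chr2:156775214-156775463 (Myl9, plus strand) and chr10:79988350-79988599 (Cnn2, plus strand).
Acta2: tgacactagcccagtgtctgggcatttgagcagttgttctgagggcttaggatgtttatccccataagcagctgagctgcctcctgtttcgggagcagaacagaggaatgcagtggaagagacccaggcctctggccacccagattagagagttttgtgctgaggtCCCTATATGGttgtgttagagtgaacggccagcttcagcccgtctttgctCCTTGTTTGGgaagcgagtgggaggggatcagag
Myl9: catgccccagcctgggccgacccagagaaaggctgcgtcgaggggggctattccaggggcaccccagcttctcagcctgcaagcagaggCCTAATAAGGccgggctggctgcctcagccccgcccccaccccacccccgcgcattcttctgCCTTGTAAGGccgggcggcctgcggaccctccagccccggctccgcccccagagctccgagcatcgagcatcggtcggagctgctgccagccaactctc
Cnn2: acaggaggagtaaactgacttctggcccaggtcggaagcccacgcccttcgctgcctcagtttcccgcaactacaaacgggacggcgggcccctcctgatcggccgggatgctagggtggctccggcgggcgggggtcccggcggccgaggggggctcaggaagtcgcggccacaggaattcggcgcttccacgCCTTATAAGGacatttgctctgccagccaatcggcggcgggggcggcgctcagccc
Myl9 held 1 full box, CCTAATAAGG, whose first base lies 161 bases before the start, and a box with 1 differing base at 99 bases. Cnn2 held 1 full box, CCTTATAAGG, at 56 bases. Acta2 held no full box, but boxes with 1 differing base at 84 and at 34 bases, CCCTATATGG and CCTTGTTTGG. Tpm2 and Flna held neither form in this window. A full box was found in 1.63% of the 32851 mouse promoters of the same length, and a full box or one with 1 differing base in 9.98%. The MCAT letters CATTCC, searched on both strands, stood once in Acta2 and once in Flna, against 14.7% of all promoters. A match describes letters only, no binding was measured, and a part of serum response factor in the differences was not tested.

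By day all 7 genes were lower in DKO than in WT hippocampus. The DKO mean was 31.3% of the WT mean for Tagln, 37.1% for Acta2, 37.4% for Myh11, 43.8% for Tpm2, 44.6% for Myl9, 67.4% for Cnn2 and 71.8% for Flna. At night the 7 DKO means were again below the WT means, at 52.8% to 91.5%, and no gene passed the test. Levels are given as FPKM, fragments scaled to the length of the transcript and to the fragments of the library, so they can be set side by side between genes. Differences are on the scale of log2(FPKM + 1), which shrinks those of genes near or below 1 FPKM, and were tested with limma over the 12689 genes that reached 0.5 FPKM in at least 3 libraries. Genes with p under 0.05 after Benjamini-Hochberg adjustment over the whole table count as called. Tissue was measured in bulk, so fewer smooth muscle cells and less RNA per cell cannot be told apart.

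**Figure D1:**
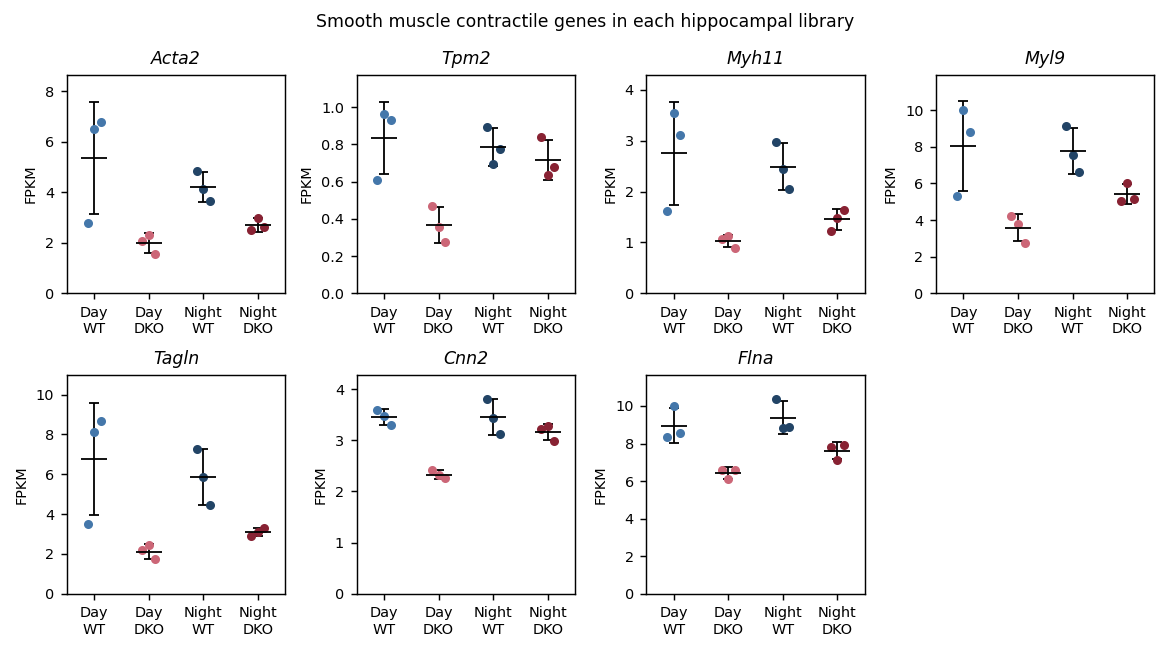
FPKM of each of the 7 genes (vertical axis, from 0) in every library, by group, with points for libraries, the long bar for the mean and the whiskers for the SD of 3 libraries. All 3 Day DKO libraries lie below all 3 Day WT libraries for each gene, and Day WT replicate 1 lies well below its group for Acta2, Myh11, Myl9 and Tagln.

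The 12 libraries had FPKM totals from 151059 to 175692, and relative depth, read from the steps between the lowest values, was 0.908 to 1.06 times that of Day WT replicate 1. Libraries of the same group correlated at 0.9951 to 0.9974 over all genes, and libraries of different groups at 0.9908 to 0.9967, which overlaps. Psen2, one of the deleted genes, had a mean of 2.00 FPKM in Day WT and 0.391 in Day DKO, and of 3.38 in Night WT and 0.477 in Night DKO. Neuron markers of the hippocampus, such as Snap25, Slc17a7 and Camk2a, summed to 705 to 799 FPKM over their 8 genes, whereas those of striated muscle summed to 2.15 to 3.88 over 10. Night WT replicate 1 stood apart in 4 Y-linked genes: Ddx3y was at 0.0225 FPKM there and at 6.83 to 8.56 in the other 11 libraries, so this library differs in sex from the rest.

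The filament genes come first. Acta2 (gene ID 11475, chr19:34240336-34255585 in GRCm38.p6) encodes the actin of smooth muscle filaments. By day its level was 2.78, 6.49 and 6.76 FPKM in the WT libraries and 2.08, 2.33 and 1.55 in the DKO libraries. Even the lowest WT library, replicate 1, was above the highest DKO library. The means were 5.34 ± 2.22 and 1.98 ± 0.399 FPKM (SD, n = 3), a difference of -1.03 in log2(FPKM + 1) with a 95% confidence interval of -1.49 to -0.56 (limma, adjusted p = 0.0402). At night the WT libraries held 4.82, 4.11 and 3.65 FPKM and the DKO libraries 2.49, 2.99 and 2.62. The groups again did not overlap, but the difference of -0.49 was not called (adjusted p = 0.520).

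Tpm2 (gene ID 22004, chr4:43513726-43523583), the beta chain of tropomyosin, was the least abundant member and the only one that fell below 0.5 FPKM in any library. By day the WT libraries held 0.610, 0.963 and 0.931 FPKM and the DKO libraries 0.468, 0.354 and 0.275. The groups did not overlap, and the difference was -0.42 (interval -0.62 to -0.23, adjusted p = 0.0468). At night the WT libraries held 0.894, 0.693 and 0.776 FPKM and the DKO libraries 0.839, 0.634 and 0.680. Here the groups overlapped, with a difference of -0.06 (interval -0.25 to 0.14, adjusted p = 0.902).

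The motor genes follow. Myh11 (gene ID 17880, chr16:14194527-14292188) encodes the myosin heavy chain of smooth muscle. By day it stood at 1.61, 3.54 and 3.11 FPKM in WT and at 1.06, 1.12 and 0.8996 in DKO. The WT libraries were spread widely and the DKO libraries lay close together below them, a difference of -0.85 (interval -1.21 to -0.49, adjusted p = 0.0319). At night the values were 2.97, 2.44 and 2.05 FPKM in WT and 1.23, 1.49 and 1.64 in DKO. All 3 DKO libraries were lower, and the difference of -0.50 was not called (adjusted p = 0.395).

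Myl9 (gene ID 98932, chr2:156775408-156781657) encodes the regulatory light chain, whose phosphorylation starts contraction. By day its level was 5.32, 10.01 and 8.77 FPKM in WT and 4.22, 3.76 and 2.76 in DKO. WT replicate 1 was again the lowest of its group and stayed above every DKO library, and the difference was -0.95 (interval -1.35 to -0.56, adjusted p = 0.0302). At night it was 9.14, 7.55 and 6.64 FPKM in WT and 5.05, 6.05 and 5.16 in DKO. No library crossed over, and the difference of -0.44 was not called (adjusted p = 0.477).

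Among the actin-binding proteins, Tagln (gene ID 21345, chr9:45929628-45936058), transgelin, had the largest difference of the 7. By day it was at 3.51, 8.10 and 8.69 FPKM in WT and at 2.19, 2.43 and 1.73 in DKO. The groups did not overlap, with a difference of -1.25 (interval -1.75 to -0.74, adjusted p = 0.0296). At night it was at 7.29, 5.86 and 4.46 FPKM in WT and at 2.90, 3.11 and 3.29 in DKO, also without overlap, and the difference of -0.72 was not called (adjusted p = 0.382). Tagln overlaps Pcsk7, a protease gene on the opposite strand; the kit keeps strand, but no source used here says whether the counting used it. The mean of Pcsk7 was 1.92 FPKM in Day WT and 2.01 in Day DKO.

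Cnn2 (gene ID 12798, chr10:79988600-79995400), calponin 2, had a smaller difference and, by day, the smallest relative spread of the 7 in both genotypes. By day it was at 3.60, 3.47 and 3.30 FPKM in WT and at 2.42, 2.31 and 2.26 in DKO. Its coefficient of variation in Day WT was 4.35%, against 41.6% for Acta2 and 41.9% for Tagln, and it had the smallest adjusted p of the 7 (difference -0.42, interval -0.56 to -0.28, adjusted p = 0.0159). At night the WT libraries held 3.82, 3.43 and 3.12 FPKM and the DKO libraries 3.22, 3.27 and 2.99. These overlapped, with a difference of -0.10 (interval -0.24 to 0.05, adjusted p = 0.706).

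Flna (gene ID 192176, chrX:74223461-74249854), filamin A, had the highest mean level of the 7 genes over the 12 libraries, at 8.10 FPKM. By day it was at 8.33, 10.004 and 8.54 FPKM in WT and at 6.61, 6.09 and 6.61 in DKO. The groups lay apart, with a difference of -0.42 (interval -0.59 to -0.25, adjusted p = 0.0296). At night it was at 10.4, 8.84 and 8.89 FPKM in WT and at 7.80, 7.11 and 7.94 in DKO, without overlap, and the difference of -0.27 was not called (adjusted p = 0.334). Flna lies on the X chromosome, and its highest night value belongs to Night WT replicate 1, the library without expression of Y-linked genes. With each library left out in turn, the night difference of Flna lay between -0.30 and -0.20.

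Over all genes tested, 0.386% were called lower in DKO by day, 49 genes, and all 7 members were among them. Complete separation of the day libraries, with every DKO value below every WT value, was met by 5.26% of the genes tested and by 7 of 7 members. Because the members were picked with earlier results known, these counts may be set by the choice and are given as a description. At night 0.0236% of genes were called lower, 3 genes, and none of the members by limma, although 5 of 7 had an unadjusted p under 0.05. The night libraries were separated in this direction for 9.48% of genes and for 5 members, all but Tpm2 and Cnn2. Averaged over both times, 0.875% of genes were called lower and 6 of 7 members: Tagln (-0.98, adjusted p = 0.0146), Flna (-0.34, 0.0146), Myh11 (-0.68, 0.0162), Cnn2 (-0.26, 0.0192), Myl9 (-0.70, 0.0204) and Acta2 (-0.76, 0.0263). Tpm2 missed the threshold (-0.24, adjusted p = 0.0751).

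The day calls rest on few libraries. Leaving out Day WT replicate 2, Day DKO replicate 2 or Day DKO replicate 3 ended all 7 calls by limma, with all 7 unadjusted p still under 0.05 and the lowest adjusted p at 0.0549, 0.0566 and 0.0655. Without Day WT replicate 3, 2 members remained called, Cnn2 and Flna, while without Day WT replicate 1 all 7 did. A fit on the day libraries alone, or one with no filter on low values, left Cnn2 as the only called member, and array quality weights left Myl9, Tagln, Cnn2 and Flna. All 7 differences stayed negative by day in the 22 alternatives in which each was tested, except that Tpm2 was tested in 21. Their size was not kept in all: with the level of fibroblast markers as a covariate they ran from -0.077 for Myl9 to -0.32 for Tagln, against -0.42 to -1.25.

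**Figure D2:**
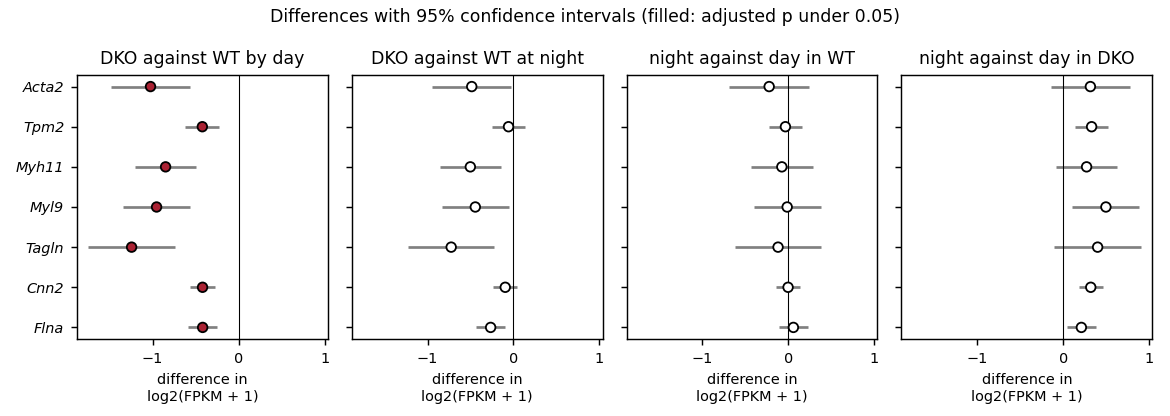
Differences in log2(FPKM + 1) of the 7 genes (horizontal axis) with 95% confidence intervals in 4 comparisons, filled where the adjusted p was under 0.05. All 7 are filled by day, from -1.25 for Tagln to -0.42 for Flna, and none in the other panels; the day panel and the panel of night against day in DKO share the Day DKO libraries.

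Time of day was compared next. In WT mice the day and night libraries of every member overlapped, and the differences of night against day ran from -0.22 for Acta2 to 0.06 for Flna. None was called by limma and none had an unadjusted p under 0.05, while 1.67% of all genes were called. In DKO mice all 3 night libraries were above all 3 day libraries for each of the 7 members, which held for 12.9% of genes tested. The night means were 118% of the day means for Flna, 136% for Cnn2, 136% for Acta2, 141% for Myh11, 147% for Tagln, 151% for Myl9 and 196% for Tpm2. None of these differences, 0.21 to 0.50, was called by limma, against 0.299% of all genes, and 4 members had an unadjusted p under 0.05. The smallest adjusted p was that of Cnn2, at 0.0621.

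The difference between the genotype effects at night and by day was positive for all 7, from 0.15 for Flna to 0.54 for Acta2. No gene of the 12689 was called for this interaction by limma (0%), and 1099 had an unadjusted p under 0.05. Among the members Cnn2 (0.32, adjusted p = 0.505, unadjusted p = 0.00395) and Tpm2 (0.36, unadjusted p = 0.0138) were under that mark. The genotype difference of the members was thus not shown to differ between day and night. The intervals were wide: that of Acta2 ran from -0.11 to 1.19.

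In the order of their means, Acta2, Tpm2, Myh11, Myl9 and Tagln were highest in Day WT, then Night WT, Night DKO and Day DKO. Day WT and Night WT overlapped for all of them, so these neighbours do not differ beyond their spread, and for Tpm2 the Night WT and Night DKO libraries overlapped as well. Flna had its highest mean in Night WT, at 9.37 FPKM, next to 8.96 in Day WT. Cnn2 had a mean of 3.46 FPKM in both WT groups. The Night DKO and Day DKO libraries did not overlap for any member.

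Some libraries were high or low across most members. Day WT replicate 1 was the lowest of its group in 6 of 7 members, with Cnn2 as the exception, and Day DKO replicate 3 was the lowest of its group in 6 of 7. Night WT replicate 1, the library that differs in sex, was the highest of its group in all 7, and a part of sex in this was not tested. Without it, 3 members had an unadjusted p under 0.05 at night. In the averaged comparison 4 were then called by limma: Myh11, Tagln, Cnn2 and Flna. Other omissions gave similar counts: 3 at night without Night WT replicate 2, and 3 averaged without Night DKO replicate 3. The summed level of the 7 genes was 25.8 FPKM in Day WT replicate 1 against 42.6 and 40.1 in the other libraries of its group. It was 16.1 to 19.1 in Day DKO, 29.6 to 39.3 in Night WT and 23.5 to 24.7 in Night DKO. After each group's mean was removed, the 10 pairs among Acta2, Tpm2, Myh11, Myl9 and Tagln correlated at 0.67 to 0.97 over the 12 libraries, and the 6 pairs with Cnn2 at 0.01 to 0.33. Without Day WT replicate 1 the first range was 0.17 to 0.87 and the second 0.48 to 0.80, so the contrast between them rests on that library. All members share the depth of a library, and these values are a description.

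Ratios between members were then taken within each library. The ratio of Tagln to Acta2 was 1.25 to 1.29 in the Day WT libraries, although Acta2 itself varied from 2.78 to 6.76 FPKM there. In Day DKO it was 1.04 to 1.12, in Night WT 1.22 to 1.51 and in Night DKO 1.04 to 1.26. The ratio of Myh11 to Acta2 was 0.46 to 0.58 in Day WT and 0.48 to 0.58 in Day DKO, and these ranges overlap. Acta2 relative to Flna was 0.334, 0.649 and 0.791 in Day WT and 0.315, 0.382 and 0.234 in Day DKO; here the groups overlapped through Day WT replicate 1. Cnn2 relative to Flna was 0.347 to 0.432 and 0.342 to 0.380, also with overlap.

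Other genes of contraction were then described. Of 12 companion genes of the smooth muscle apparatus, 7 were expressed highly enough to test. All 7 had negative differences by day, against 37.2% of all genes tested, with a median of -0.25 against 0.04 over all genes tested. Only Pln, phospholamban, which restrains the calcium pump of the sarcoplasmic reticulum, was called, with means of 0.794 FPKM in Day WT and 0.286 in Day DKO (difference -0.47, adjusted p = 0.0413). Pln and Cnn1 reached 0.5 FPKM in WT libraries only, with highest DKO values of 0.479 and 0.253. They passed the filter through the group in which they are high, so their sign and the call of Pln are partly set by the filter. At night the median was -0.23, with all 7 negative, against 53.8% of all genes tested, and none called by limma. The most abundant companion, Ppp1r14a, an inhibitor of myosin phosphatase, had 9.10 to 18.1 FPKM over the 12 libraries, and Mylk, the kinase of the light chain, 1.59 to 3.45. Cnn1, the calponin of differentiated smooth muscle, stayed at or below 0.579 FPKM, and Actg2, the actin of visceral smooth muscle, at or below 0.404.

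The widely expressed relatives of the members had medians near that of all genes tested. Over 17 tested paralogs, such as Actb and Actg1 (cytoplasmic actins), Myl12a and Myl12b (non-muscle light chains), Tpm1, Cnn3 and Tagln2, the median difference was 0.06 by day and -0.01 at night, with none called by limma in either. Averaged over both times 1 paralog was called, Tagln3, the transgelin of neurons, which was higher in DKO (0.25, adjusted p = 0.0347). Tagln2 had an averaged difference of 0.33 that was not called (adjusted p = 0.0659). Of 17 tested regulators, including Srf, Mkl1 and Mkl2 (serum response factor and its coactivators), Rhoa, Rock1, Rock2 and Notch3, none was called by limma in the day, night or averaged comparison, and the median was 0.01 by day and -0.04 at night. Myocd, the myocardin gene that directs smooth muscle transcription, was too low to be tested. It was at 0.0625 to 0.0988 FPKM in Day WT and 0.0257 to 0.0345 in Day DKO, without overlap. At night it was at 0.0356 to 0.0791 FPKM in WT and 0.0397 to 0.0815 in DKO, with overlap.

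**Figure D3:**
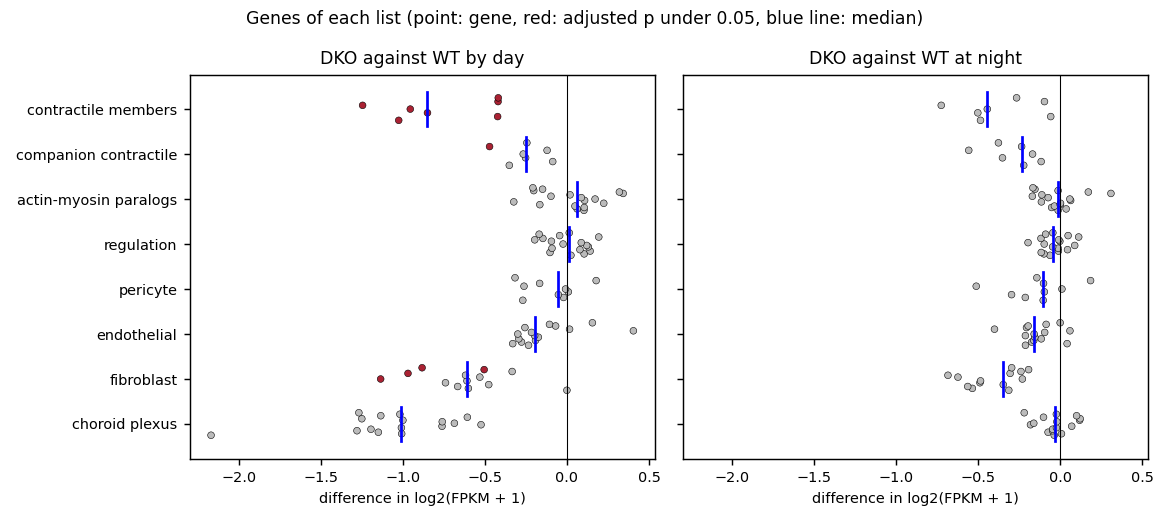
Differences in log2(FPKM + 1) of DKO against WT (horizontal axis) for the tested genes of each list, by day and at night, with a point per gene, red where called and a blue line at the list's median. The 7 members have medians of -0.85 and -0.44; choroid plexus markers have -1.01 by day and -0.03 at night, and fibroblast markers -0.61 and -0.35.

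Markers of other cells of vessels and membranes were measured beside the members. None of the 15 endothelial markers, led by Cldn5, Slc2a1 and Itm2a, was called by limma by day, at night or averaged over both times. Their medians were -0.20 by day, -0.16 at night and -0.18 averaged. By day 12 and at night 13 of the 15 were negative, against 37.2% and 53.8% of all genes tested. Averaged, their unadjusted limma p ran from 0.00104 (Pecam1) to 0.385 (Slc2a1), most of them under 0.05. Among all 12689 genes tested, 2055 were under that mark. Their summed level was 86.8 to 101 FPKM in Day WT, 81.5 to 90.4 in Day DKO, 95.2 to 108 in Night WT and 86.8 to 94.4 in Night DKO, with overlap by day and none at night. Of the pericyte markers, led by Vtn, Rgs5 and Pdgfrb, 9 of 10 were tested and none called at either time or averaged. Their medians were -0.05 by day, -0.10 at night and -0.13 averaged, with 7 negative in each. Averaged, their unadjusted limma p ran from 0.00121 (Vtn) to 0.987 (Cspg4), most of them under 0.05. Their sums were 43.3 to 54.7 FPKM in Day WT and 41.5 to 48.2 in Day DKO, which overlap, and 51.2 to 58.3 in Night WT and 41.3 to 42.7 in Night DKO, which do not.

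Fibroblast markers of the meninges and perivascular spaces had negative differences along with the members. All 13 were negative at both times, against 37.2% of all genes tested by day and 53.8% at night. Their medians were -0.61 by day and -0.35 at night. The fibroblast differences by day ran from -1.14 to -0.00043, so the sign of the smallest says little. By day 4 were called: Igf2, a growth factor (42.3% of the WT mean, adjusted p = 0.0209), Slc13a4, a sulfate transporter (45.1%, 0.0230), Bgn, the proteoglycan biglycan (61.0%, 0.0163), and Pcolce, an enhancer of procollagen cleavage (46.5%, 0.0469). At night none was called by limma, and averaged over both times 9 of 13 were. The summed level was 64.9 to 88.4 FPKM in Day WT, 39.1 to 50.2 in Day DKO, 74.9 to 92.7 in Night WT and 55.7 to 63.5 in Night DKO, and no marker was at 0 in all libraries. When the mean scaled level of these 13 genes was added to the fit as a covariate, a choice made after the data were seen, 0 of 7 members were called in any genotype comparison by limma, with 1 unadjusted p under 0.05 by day and none at night or averaged. The day differences in that fit were -0.18 for Acta2, -0.086 for Tpm2, -0.21 for Myh11, -0.077 for Myl9, -0.32 for Tagln, -0.29 for Cnn2 and -0.19 for Flna. That level was higher in every WT library than in every DKO library, so in this fit it and the genotype cannot be told apart. The part of these cells in the result was not tested.

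Choroid plexus markers, led by Ttr, Kl and Clic6, had a lower median than the members by day but not at night. All 16 were negative by day, against 37.2% of all genes tested, with a median of -1.01 and none called by limma. At night 11 were negative, against 53.8% of all genes tested, with a median of -0.03. Their sum was 1110 to 2759 FPKM in Day WT, 63.2 to 1787 in Day DKO, 1353 to 3132 in Night WT and 1899 to 3004 in Night DKO. The Day DKO library with the lowest sum, replicate 2, was the highest of its group in 3 of the 7 members (Acta2, Myh11 and Tagln), the lowest in 1 (Flna) and in between for Tpm2, Myl9 and Cnn2. With that tissue's marker level in the fit as a covariate, the day differences were -0.33 for Flna to -1.47 for Tagln; 0 of 7 were called by limma, with 7 unadjusted p under 0.05 and a lowest adjusted p of 0.0814, and 5 were called averaged over both times. All 5 blood markers were negative at both times, with medians of -0.39 by day and -0.65 at night, the latter below the -0.44 of the members. Their sum was 111 to 153 FPKM in Day WT, 90.5 to 109.8 in Day DKO, 171 to 285 in Night WT and 116 to 159 in Night DKO, without overlap at either time. Of these markers 1 was called lower by day, Hbb-bt, a beta globin (63.2% of the WT mean, adjusted p = 0.0468), and 3 averaged over both times. The part of these tissues in the result was not tested.

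**Figure D4:**
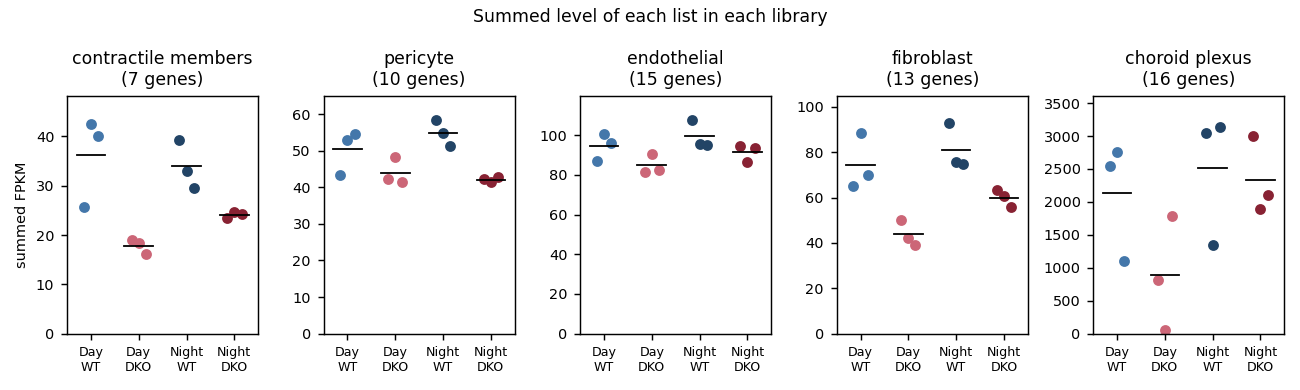
Summed FPKM (vertical axes, from 0) of the 7 members and of 4 marker lists in each library, by group, with a bar at the mean of 3 libraries. Sums of the members and of the fibroblast markers separate DKO from WT at both times, pericyte and endothelial sums separate them at night only, and choroid plexus sums spread from 63.2 to 3132.

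The genes most like the members were taken from 11091 genes with a mean log2(FPKM + 1) of at least 1, by their correlation with the mean of the 7 scaled members over the 12 libraries. The 10 highest had r between 0.915 and 0.948, and between 0.916 and 0.949 without Day WT replicate 1. They were Cp (ceruloplasmin, a copper-carrying ferroxidase), Ptprb (a receptor phosphatase of endothelium), Lamc3 (a laminin chain), Gjb2 (connexin 26), Bmp6 (a bone morphogenetic protein), Ddr2 (a collagen receptor), Emilin1 (an elastic fibre protein), Bgn, Thbd (thrombomodulin) and Ptrf (cavin 1, a coat protein of caveolae). All 10 had negative genotype differences by day, -0.26 to -0.75, and at night, -0.17 to -0.51, and 4 of them, Bmp6, Bgn, Ddr2 and Emilin1, were called by day. With group means removed the highest were 6330408A02Rik, Lgals9, Eif2a, Col3a1, Fam98a, Mrc2, Islr, Snrpb, Papd4 and Cp, with r of 0.896 to 0.933, and 0.720 to 0.959 without Day WT replicate 1. Cp was the gene found on both lists. The points share libraries, depth and, in the first case, the genotype difference itself. The signs and calls of the first 10 genes therefore follow in part from how they were picked.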

How the data were processed

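Hippocampal libraries were built with a stranded total RNA kit that depletes ribosomal RNA, per the labels' protocols. The authors deposited 1 table per library with 1 FPKM value per gene. No header gives the unit, which was recognised from the values themselves. The submitters' processing notes name build GRCm38.p6, and no source used here names an aligner, a counter or a number of reads. Precision is therefore given only by the spread between libraries of the same group, which the fit shares over the 4 groups. FPKM was taken to log2(FPKM + 1) and fitted with limma 3.58.1 in R 4.3.3, with a mean for each group, a shared spread from the 12 libraries and a variance trend, 2-sided, over genes with at least 0.5 FPKM in at least 3 libraries. A count model was planned only for counts, which the tables do not hold. The 6 comparisons were genotype by day, at night and averaged, their interaction, and time in each genotype. The fit was tested on simulated data.

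The text names all 7 members, Psen2, up to 4 genes of each list with the smallest p in the averaged comparison, the 3 most abundant of each cell type list, direct paralogs, and the 10 genes most alike. Pcsk7, the regulators, the called list genes and the companions Ppp1r14a, Mylk, Cnn1 and Actg2 beyond this rule were added for their roles or calls after values were seen. Members and lists were chosen with earlier results of these data known. No single other gene holds more than 0.4% of the 50-base words of a member's longest coding transcript. Same-numbered libraries were compared by the correlation of their deviations from the group means, -0.116 to 0.247 over 18 pairs, so the numbers were not used to pair them. Alternatives changed the pseudocount, the filter, the scaling, the samples fitted, a replicate block, library weights and 2 covariates, and left out each library in turn. Some items that the rule would name are not reported here.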

Additional observations from a re-analysis of the deposited data

How the results depend on the processing

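The count of called members by day, 7, was 6 with quantile normalization, the stricter filter of at least 1 FPKM in at least 6 libraries (which leaves out Tpm2) or the replicate block, 4 with array quality weights, 1 with no filter or with only the groups compared, and 0 with the choroid plexus or the fibroblast level as a covariate. With 1 library left out it ran from 0 to 7. Averaged over both times, 6 members were called; this was 0 with no filter (lowest adjusted p = 0.0502, 7 unadjusted p under 0.05) and 0 with the fibroblast covariate, and 3 (without Night DKO replicate 3) to 7 (without Day WT replicate 1) with 1 library left out. At night, for the interaction and for time in WT the count was 0 in all alternatives run. For time in DKO it was 1 with the replicate block (Cnn2, adjusted p = 0.0448) and 0 otherwise. Same-numbered libraries were not shown to be paired, and with the block no other count of called members changed than 7 to 6 by day. Over all genes, calls by day were 150, and 0 to 205 over the alternatives; averaged 238, and 0 to 339; at night 3, and 0 to 38; for time in WT 212, and 1 to 418; for time in DKO 38, and 9 to 69. No scaling moved the median of all genes by over 0.1.

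Of 904 recomputed member differences 28 changed sign, none of them by day. With the fibroblast covariate, the night difference was 0.13 for Acta2, 0.19 for Tpm2 and 0.19 for Myl9, the averaged difference 0.050 for Tpm2 and 0.059 for Myl9, and night against day in DKO -0.086 for Acta2, -0.033 for Myh11 and -0.040 for Tagln; the cause was not tested. The other 20 were for night against day in WT, where values lie near 0. Flna was -0.022 with median-of-ratios scaling and -0.032 with quantile normalization, and Myl9 was 0.019 with array quality weights. With 1 library left out the values there ran from -0.12 to 0.018 for Tpm2, from -0.32 to 0.082 for Myh11, from -0.25 to 0.15 for Myl9, from -0.47 to 0.079 for Tagln, from -0.060 to 0.052 for Cnn2 and from -0.0097 to 0.13 for Flna. The number of reads is not given, so no counting error could be set beside the lowest member, Tpm2.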
